A study of Mus musculus with 6 samples.

Results

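Acpp, Fxyd2, Paqr5, Lpar3 and Agtr1a encode 5 membrane proteins of non-peptidergic nociceptors, and their RNA was measured in mouse lumbar dorsal root ganglia. They were 5 of the 36793 gene identifiers in the deposited table. They were chosen by name after their expected counts and TPM had been seen to be lower in the knockout, so the differences between groups given here for these 5 genes are descriptions and carry no test. Ganglia from spinal levels L3 and L4 were taken from 3 mice labelled Wildtype and 3 labelled NMDA-R Knockout, and no treatment is named. The series title places the deletion of the gene for the GluN1 receptor subunit in Schwann cells, which ensheathe peripheral axons. The sources used here do not give the Cre driver, alleles, strain, age or sex. The 6 libraries held 28526704 to 36249163 expected counts, the estimated read counts per gene.

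Knockout libraries 5 and 6 differed by little more than sampling noise. Their mean chi-square per gene was 1.15 over 10258 genes with 0 differing genes, against 13.2 to 104.0 and 3382 to 7317 genes in the other 14 pairs of libraries. They were counted as 1 sample, which leaves 3 wild-type and 2 knockout samples. Results below with 6 libraries take libraries 5 and 6 as separate samples, and so overstate the replication. Levels below are CPM, counts scaled to library size by TMM, unless TPM, the value per transcript length, is named. One label calls the cells Schwann cells, but the 12 pan-neuronal genes summed to 11300 to 12910 CPM per library and 5 myelin genes to 3922 to 5283 CPM, so the libraries hold both neurons and glia. Grin1, the targeted gene, measured 68.6, 114 and 74.4 CPM in the wild-type mice against 81.5, 116 and 116 CPM in the knockouts, with overlap (log2 fold change 0.21, edgeR adjusted p = 0.812). Its sign turned without knockout 5 and 6.

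Non-peptidergic nociceptors are small unmyelinated sensory neurons that innervate the outer skin and carry mechanical pain and itch. During development they lose the nerve growth factor receptor TrkA, gain the GDNF family receptor Ret and depend on the transcription factor Runx1. Acpp, also called FRAP or prostatic acid phosphatase, is a transmembrane ectonucleotidase that removes the phosphate from extracellular AMP to give adenosine, and its activity is a classical stain for these neurons. Fxyd2 is the gamma subunit that tunes the sodium pump. Lpar3 and Agtr1a are G protein-coupled receptors, for lysophosphatidic acid and angiotensin II, and Paqr5 is a membrane progestin receptor.

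By the GENCODE vM21 annotation of GRCm38, Acpp (ENSMUSG00000032561) lies on the minus strand of chromosome 9 from 104288251 to 104337748. Paqr5 (ENSMUSG00000032278) lies on the same strand of chromosome 9 from 61953481 to 62026856, and Fxyd2 (ENSMUSG00000059412) on the plus strand of chromosome 9 from 45399669 to 45410278. Lpar3 (ENSMUSG00000036832) lies on the plus strand of chromosome 3 from 146220963 to 146286186, and Agtr1a (ENSMUSG00000049115) on the plus strand of chromosome 13 from 30336441 to 30382867. All 5 are protein-coding. Of overlapping genes, Paqr5 holds the small RNA gene Gm23221 on the other strand and Agtr1a the intronic transcript Gm48161 on its own strand, and none was annotated for the other 3. Whether the quantification used strand is not stated in the labels or headers.

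The promoters of 3 of the 5 genes, Acpp, Paqr5 and Lpar3, are shown because these genes were lower together and Runx1 is a known regulator of this neuron class. The sequences are RefSeq's (GRCm38.p6), 5′ to 3′ on the gene's strand, and end before the first annotated transcript base. Capitals mark the core of the RUNX motif, TGTGG, on either strand. The stretches are chr9:104337749-104337972 for Acpp, chr9:62026857-62027040 for Paqr5 and chr3:146220711-146220960 for Lpar3.
Acpp: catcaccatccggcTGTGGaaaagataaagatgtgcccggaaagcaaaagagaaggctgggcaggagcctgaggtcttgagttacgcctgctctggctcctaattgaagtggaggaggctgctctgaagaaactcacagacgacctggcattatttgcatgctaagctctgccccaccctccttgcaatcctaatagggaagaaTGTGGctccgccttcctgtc
Paqr5: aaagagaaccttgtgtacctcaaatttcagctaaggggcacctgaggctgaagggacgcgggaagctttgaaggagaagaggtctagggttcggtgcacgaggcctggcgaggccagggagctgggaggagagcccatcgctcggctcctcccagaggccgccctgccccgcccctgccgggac
Lpar3: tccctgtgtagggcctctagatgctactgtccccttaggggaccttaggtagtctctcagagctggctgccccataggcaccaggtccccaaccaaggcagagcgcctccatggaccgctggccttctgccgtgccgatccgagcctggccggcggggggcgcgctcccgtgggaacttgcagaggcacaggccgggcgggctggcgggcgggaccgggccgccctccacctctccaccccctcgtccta
The Acpp stretch held 2 matches, and the 300-base windows of Paqr5 and Lpar3 (250 bases before to 50 after the start) held 0. Of all 32851 promoter windows of that length, 55.9% held at least 1 match to TGTGG, so a match is common. The longer form TGTGGT, in 16.8% of windows and itself overlapping TGTGG, and the AP-1 motif TGANTCA, in 7.81%, were found in 0 of the 3. Fxyd2 and Agtr1a were not matched in the promoter table.

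Each of the 5 genes stood at 39.0 to 57.3% of its wild-type mean in every knockout library, Lpar3 in knockout 4 being the lowest value and Fxyd2 in knockout 4 the highest. Acpp measured 695, 641 and 599 CPM in wild-type mice 1, 2 and 3 against 357, 351 and 346 CPM in knockouts 4, 5 and 6, and values below keep this order. The lowest wild-type library was well above the highest knockout library, and the knockout libraries lay at 55.3, 54.3 and 53.7% of the wild-type mean. Its means were 649 ± 46.5 CPM (SD, n = 3) and 356 ± 5.01 CPM (SD, n = 2), a log2 fold change of -0.87 with a standard error of 0.11. Whether this reflects fewer neurons of the class or less RNA per neuron cannot be told apart in whole ganglia, here and for the genes below.

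Fxyd2 measured 425, 380 and 396 CPM in the wild-type mice against 229, 200 and 196 CPM in the knockouts. The groups did not overlap, and knockout library 4 was the highest of the 3. The means were 403 ± 22.0 CPM (SD, n = 3) and 216 ± 21.9 CPM (SD, n = 2), a log2 fold change of -0.90 with a standard error of 0.12. The deposited table lists 1 transcript for Fxyd2, of 632 bases, so its other isoforms were not quantified apart.

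Paqr5 measured 54.6, 48.1 and 51.6 CPM in the wild-type mice against 28.9, 27.9 and 26.8 CPM in the knockouts, with no overlap. Means of 51.8 ± 3.10 CPM (SD, n = 3) and 28.4 ± 1.000 CPM (SD, n = 2) gave a log2 fold change of -0.87 (standard error 0.11). Within each genotype the libraries lay close together, as for Acpp and Fxyd2.

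The 2 receptors spread more. Lpar3 measured 48.7, 64.4 and 48.9 CPM in the wild-type mice against 21.1, 30.4 and 28.6 CPM in the knockouts. Wild type 2 was the highest library and knockout 4 the lowest, and the groups did not overlap. Means of 54.4 ± 9.21 CPM (SD, n = 3) and 25.5 ± 6.09 CPM (SD, n = 2) gave a log2 fold change of -1.09 (standard error 0.21).

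Agtr1a was the least abundant, with 18.3, 20.5 and 12.4 CPM in the wild-type mice against 7.93, 8.83 and 8.38 CPM in the knockouts. Wild type 3 was the nearest to the knockout libraries, still above each of them. Means of 17.2 ± 4.21 CPM (SD, n = 3) and 8.35 ± 0.508 CPM (SD, n = 2) gave a log2 fold change of -1.04 (standard error 0.23). Its values rest on 233 to 652 expected counts per library, against 6273 to 23187 for Acpp and Fxyd2.

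**Figure D1:**
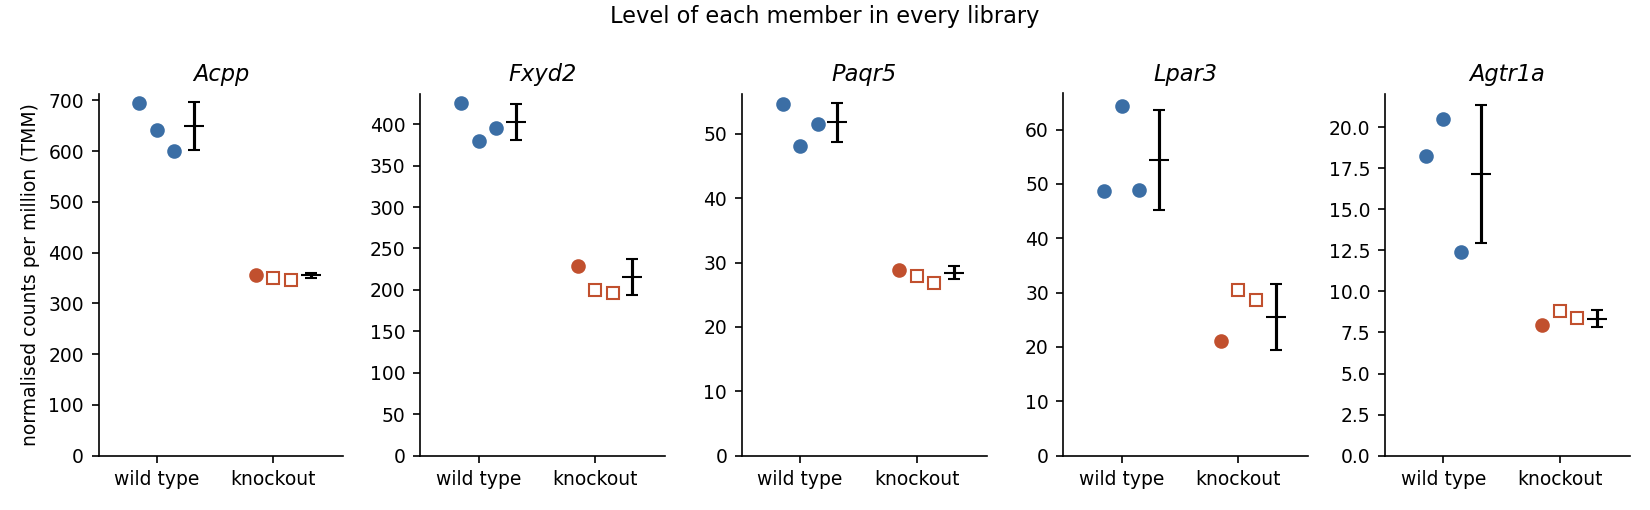
Level of each of the 5 genes in every library, in TMM-scaled CPM on axes from 0. Points are libraries (blue wild type, red knockout; open squares are the near-identical knockout libraries 5 and 6), bars are the mean ± SD over 3 wild-type and 2 knockout samples. In each panel every knockout library lies below every wild-type library, with Acpp at 346 to 357 against 599 to 695.

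The values that chose these genes place all 5 below the wild-type range, where 15.5% of the 16810 genes tested were lower in the knockout without overlap between the groups. All 5 passed the filter on low counts. With the 6 libraries counted separately 14.1% of 16535 genes were lower without overlap. In wild type, the libraries varied by 7.17% (coefficient of variation) for Acpp, 5.45% for Fxyd2 and 5.99% for Paqr5, against 16.9% for Lpar3 and 24.5% for Agtr1a. The profiles over the 5 samples, centred on the wild-type mean, were compared by their root mean square difference in log2 CPM. It was 0.051 between Fxyd2 and Paqr5, 0.065 between Acpp and Paqr5 and 0.079 between Acpp and Fxyd2. Against Lpar3 or Agtr1a these 3 genes differed by 0.222 to 0.316, and Lpar3 and Agtr1a from each other by 0.22. The knockout samples are part of this distance, so it reflects in part the same fall that chose the genes. Of the 5, the 3 genes with the closest profiles are the 3 on chromosome 9, and also the 3 that varied least in wild type. Whether position has a part in this was not tested.

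Per transcript length the order of levels was Fxyd2, Acpp, Lpar3 and Paqr5, Agtr1a. Fxyd2 stood at 1547 ± 97.1 TPM (SD, n = 3) in wild type and 824 ± 57.1 TPM (SD, n = 2) in knockout, rank 51 by wild-type TPM among all identifiers. Acpp stood at 324 ± 23.8 and 176 ± 2.84 TPM. Fxyd2 was the most abundant of the 5 in both genotypes, and neither Fxyd2 and Acpp nor Acpp and the next gene overlapped in either group. Lpar3, at 48.1 ± 7.47 TPM, and Paqr5, at 41.2 ± 2.68 TPM, overlapped in wild type. In knockout they stood at 22.6 ± 6.08 and 24.9 ± 0.644 TPM, and again overlapped. Agtr1a was the lowest, at 17.4 ± 4.12 TPM in wild type and 8.43 ± 0.834 TPM in knockout.

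The mean transcript length that RSEM reports for a gene, weighted by the abundance of its isoforms, was not used to choose the genes. It could vary for 3 of them. For Paqr5 it was 2892.43, 2753.71 and 2664.56 bases in wild type and 2563.12, 2444.14 and 2480.42 bases in knockout. Every knockout library was shorter than every wild-type library, and the mean was lower by 257.5 bases, from 2770.2 ± 114.8 (SD, n = 3) to 2512.7 ± 71.3 (SD, n = 2). An exact two-sided permutation test gave p = 0.2 over the 5 samples, the smallest that 3 against 2 allows, and p = 0.1 over 6 libraries, likewise the smallest. Among the 10465 tested genes whose length varied, 9.41% were shorter in the knockout without overlap and 8.18% longer, so such a difference is common in these libraries.

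The table lists 3 Paqr5 transcripts, whose exons add up to 3566 bases (coding), 3307 bases (not coding) and 1073 bases (coding) in vM21. The shortest runs from 61956046 to 61976573 on chromosome 9 and starts far downstream of the other 2. A mean under 3307 bases requires some of it. Its share of Paqr5 transcripts would be at least 18.6 to 28.8% and at most 27.0 to 36.2% in the wild-type libraries, and at least 33.3 to 38.6% and at most 40.2 to 45.0% in the knockout libraries. These bounds assume that the authors' annotation gave the same lengths. Of 22210 genes with 1 listed transcript, 75.1% had the vM21 length within 1 base. Since TPM divides by length, the log2 fold change of Paqr5 was smaller on TPM, at -0.72 with a pseudocount of 0.1.

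For Acpp the length was 4355.6 to 4386.86 bases in wild type and 4370.0 to 4389.57 bases in knockout, with a difference of 1.9 bases (exact two-sided permutation p = 1.0). For Agtr1a it was 2150.09 to 2199.0 and 2158.44 to 2199.0 bases, with a difference of 6.2 bases (exact two-sided permutation p = 1.0). The sign of both differences turned when single samples were left out. With 3 against 2 samples the exact permutation test cannot go below p = 0.2. It therefore cannot tell whether the isoform mix of these 2 genes differed.

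**Figure D2:**
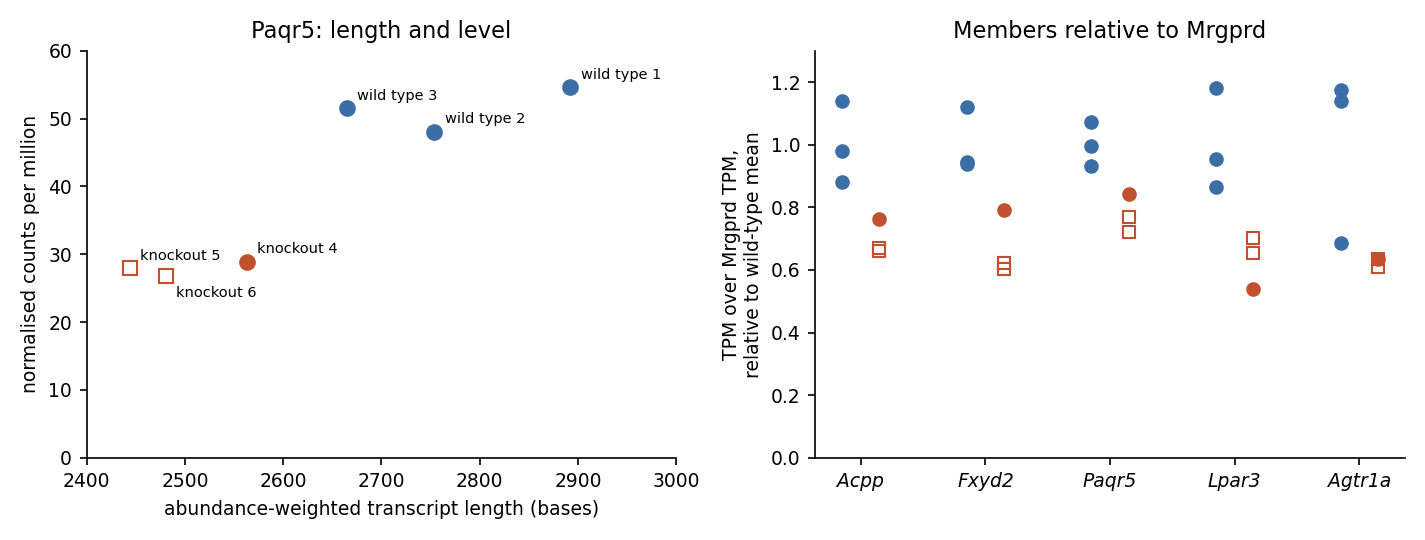
Left, Paqr5 level in TMM-scaled CPM against its abundance-weighted transcript length in bases, 1 point per library. Right, each gene's TPM divided by the TPM of Mrgprd in the same library, relative to the wild-type mean (blue wild type, red knockout, open squares knockout libraries 5 and 6). The knockout libraries are at 2444.14 to 2563.12 bases on the left and below the wild-type libraries for all 5 genes on the right.

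The other markers of non-peptidergic nociceptors were also lower, most of them by less than the 5 genes above. Since those 5 were chosen for being lower in these data, their larger fall is in part a result of that choice. All 14 tested markers were negative on the log2 scale, with a median of -0.55, and 10 of 14 did not overlap between groups, all lower. Over all 16810 tested genes 8379 were negative, the median was 0.0 and 15.5% were lower without overlap. None of the 14 passed at an FDR of 0.05 in edgeR, where 0.0952% of all genes did. By unadjusted p below 0.05, 11 of 14 were lower, where 4.0% of all genes were. With the 6 libraries counted separately, which overstates the replication, 6 of the 14 passed, all lower, where 0.411% of all genes were called lower. In DESeq2 6 passed, where 1.52% of all genes did. In limma-voom 0 passed, where 0.0773% of all genes did.

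Mrgprd, the receptor that defines the largest group of these neurons, measured 161, 172 and 178 CPM in the wild-type mice against 123, 137 and 138 CPM in the knockouts. The groups did not overlap, with a log2 fold change of -0.39 (standard error 0.11). P2rx3, the ATP-gated channel subunit of these neurons, measured 209, 192 and 224 CPM against 181, 196 and 190 CPM, with overlap and a log2 fold change of -0.15. The sodium channel gene Scn11a, at -0.24, also overlapped.

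Larger differences were seen for the transmembrane protein gene Tmem45b, with 172, 151 and 158 CPM in the wild-type mice against 97.0, 90.0 and 87.2 CPM in the knockouts (log2 fold change -0.78). Cd55, which restrains complement, had a log2 fold change of -0.73 and Grik1, a kainate receptor subunit, one of -0.67. None of these 3 passed in edgeR on 5 samples. All 3 passed with 6 libraries, a count that takes the near-identical knockout libraries 5 and 6 as separate samples. Mrgprb4, a receptor of a small group of neurons that respond to stroking, had the lowest value of the 14, -1.59 with a standard error of 0.30, from 11.7, 6.25 and 11.6 CPM to 3.3, 3.41 and 2.94 CPM. Others with no overlap were the kinase Prkcq at -0.56, the channel Trpa1 at -0.57, the G protein subunit Gna14 at -0.52 and the semaphorin receptor Plxnc1 at -0.52. Mrgprb5 at -0.89 and Lpar5 at -0.32 overlapped.

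Relative to Mrgprd in the same library, the 5 genes were lower in every knockout library than in any wild-type library. The 5 genes were chosen for their lower TPM, and Mrgprd (-0.39) and P2rx3 (-0.15) fell less. Lower ratios to these 2 genes thus follow in part from that choice, and the share over all genes was not computed. The TPM ratio of Acpp to Mrgprd was 3.06, 2.63 and 2.37 in wild type and 2.05, 1.81 and 1.78 in knockout. That of Fxyd2 was 14.4, 12.0 and 12.1 against 10.2, 7.97 and 7.76. For Paqr5, Lpar3 and Agtr1a the wild-type ratios began at 0.318, 0.345 and 0.0997, and the knockout ratios ended at 0.287, 0.279 and 0.0923. The gap for Agtr1a was small beside its spread. Relative to P2rx3 none of the 5 overlapped either, while relative to Gfra2 all but Lpar3 did.

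The regulators that build this neuron class lay on both sides of their wild-type levels. Of 13 tested genes of the Runx1 and Ret programme, 7 were negative, the median was -0.04 and 0 were lower without overlap, beside the 15.5% of all genes. None passed in edgeR, DESeq2 or limma-voom, and 2 were higher at an unadjusted p under 0.05, where 5.16% of all genes were. Runx1 measured 76.6, 99 and 81.6 CPM in the wild-type mice against 58.4, 76.2 and 77.2 CPM in the knockouts (log2 fold change -0.34), with overlap. Its partner Cbfb measured 258, 271 and 250 CPM against 276, 297 and 298 CPM, higher without overlap (0.15), where 11.8% of all genes were higher in that way. Ret measured 494, 807 and 647 CPM against 583, 900 and 902 CPM, with overlap. Its co-receptors Gfra1 at 0.28 and Gfra3 at 0.34 were higher without overlap, and Gfra2, the neurturin co-receptor of these neurons, overlapped at -0.33. In knockout 4 taken alone, Runx1, Gfra2, Pou4f1, Klf7, Tlx3 and Prdm12 were below every wild-type library. A lone knockout sample makes overlap rarer by construction. The share over all genes was not computed for that setting, so the 15.5% does not apply to it. The log2 fold change of Gfra2 was then -0.76, against -0.01 without knockout 4. The homeodomain factor Isl1 was at 106 to 117 CPM in wild type and 104 to 114 CPM in knockout.

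**Figure D3:**
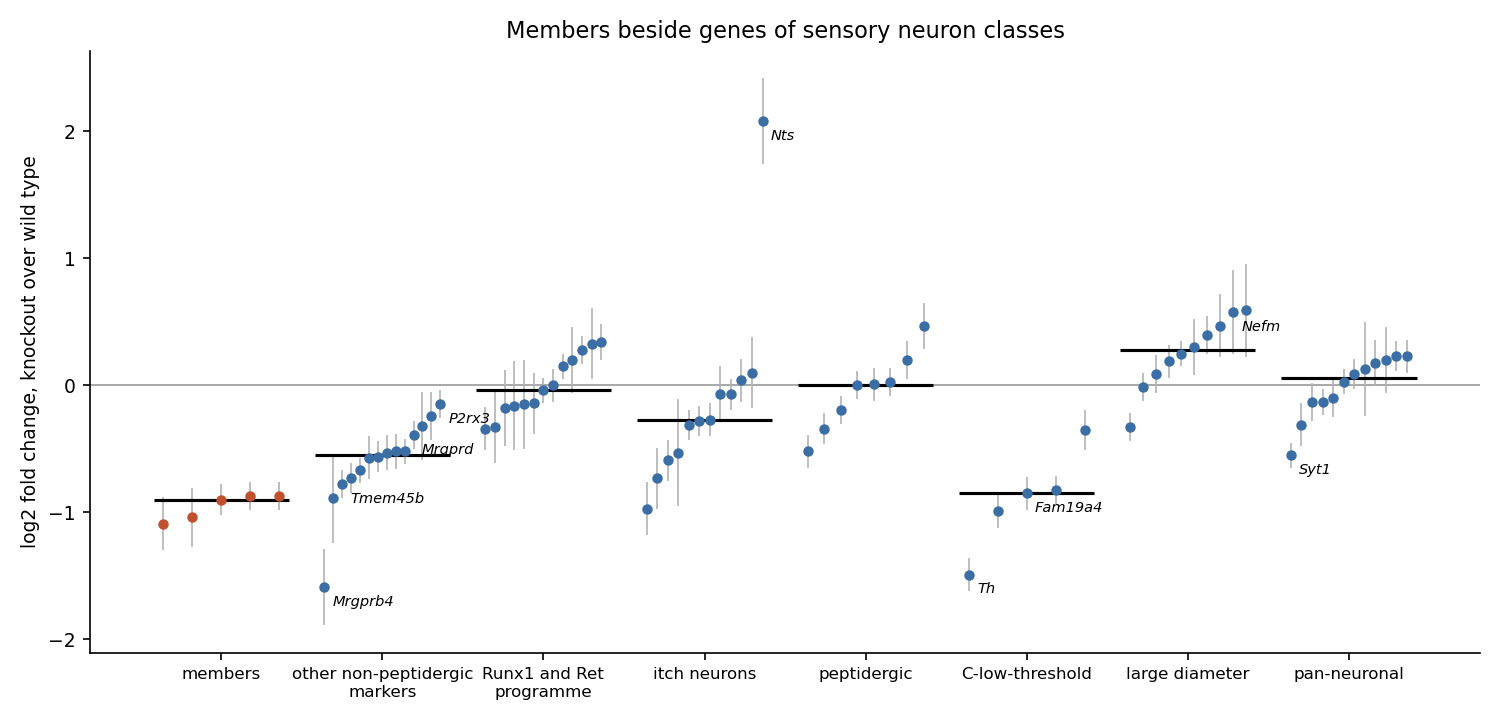
Log2 fold change of knockout over wild type (edgeR, 3 against 2 samples) for each tested gene of 8 groups, with its standard error as a grey bar and the group median as a black line. The 5 genes described here are red and lie from -1.09 to -0.87, the other non-peptidergic markers have a median of -0.55, and pan-neuronal genes one of 0.06.

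Across other neuron classes, the C-low-threshold mechanoreceptors, unmyelinated touch neurons that also depend on Runx1, had the values nearest to the 5 genes. All 5 of their markers were lower without overlap, beside 15.5% of all genes, with a median of -0.85. Th, which makes the precursor of dopamine, passed in edgeR, where 0.0357% of all genes were called lower. It fell by 1.49 on the log2 scale (adjusted p = 0.0251), and the call was lost without wild type 3, without knockout 4 or without knockout 5 and 6. The cytokine-like gene Fam19a4 measured 56.9, 48 and 50.7 CPM in the wild-type mice against 30.9, 26.6 and 26.7 CPM in the knockouts (log2 fold change -0.85), and the vesicular glutamate transporter Slc17a8 was at -0.99.

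Of 12 itch neuron genes 9 were negative, with a median of -0.27, and 6 were lower and 1 higher without overlap, beside 15.5 and 11.8% of all genes. The peptide gene Nppb was at -0.97, while Nts, the neurotensin gene, was higher at 2.08. None of them passed in edgeR or limma-voom, 2 passed in DESeq2 (1.52% of all genes), and at an unadjusted p under 0.05 there were 4 lower and 1 higher (4.0 and 5.16% of all genes). Peptidergic nociceptor genes had a median of 0.01, with 3 of 8 lower and 1 higher without overlap, beside 15.5 and 11.8% of all genes. The lower ones were Calcb, a CGRP precursor, at -0.52, Tac1, the substance P precursor, at -0.34 and the heat-gated channel Trpv1 at -0.19. The other 5 of the 8 were positive. Among these, Calca, another CGRP precursor and the most abundant of the 8, was at 0.0 with overlap. Of 10 genes of large-diameter neurons, which carry touch and position sense, 8 were positive with a median of 0.27. Of 12 pan-neuronal genes 5 were negative with a median of 0.06. Scaling to these pan-neuronal genes left the log2 fold changes of the 5 genes between -1.08 and -0.86.

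The genes whose profile over the 5 samples was closest to each of the 5 were sought among 11234 genes with at least 5 CPM. The knockout samples are part of this distance, so a gene found to be close is lower in the knockout by construction. This holds for all close genes named here and in the next paragraph. For Fxyd2 the nearest were Otoa, an inner ear matrix protein gene, with a root mean square difference of 0.039 in log2 CPM, Fam19a4 with 0.045 and Tmem45b with 0.081. Fam19a4, with 0.053, and Tmem45b, with 0.056, were also the nearest to Paqr5, followed by the cation channel Trpc6 with 0.062. For Acpp they were the kinase Cdk15 with 0.063, Otoa with 0.069 and the membrane trafficking gene Mal2 with 0.072.

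The receptors had more distant neighbours. Nearest to Lpar3 were Penk, the enkephalin precursor, with 0.197, Slc17a8 with 0.201 and Cdk15 with 0.227. Penk fell by 1.21 on the log2 scale (edgeR adjusted p = 0.0303), and the call was lost whichever sample was left out. Nearest to Agtr1a were the adenylate kinase Ak4 with 0.161, Cdk15 with 0.174 and Tmem158 with 0.202. Cdk15 was the 1 gene near 3 of the 5. It measured 45.3, 46.5 and 39 CPM in the wild-type mice against 23.2, 24.6 and 23.1 CPM in the knockouts.

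The pathways in which the 5 proteins act were examined next, through the other genes of each. In the adenosine pathway and the acid phosphatases, 18 genes were tested, with 10 negative, a median of -0.08 and 5 lower and 3 higher without overlap, beside 15.5 and 11.8% of all genes. None passed in edgeR, where 0.0952% of all genes did, 2 passed in DESeq2 (1.52% of all genes) and 0 in limma-voom (0.0773%), and at an unadjusted p under 0.05 there were 4 lower and 3 higher (4.0 and 5.16% of all genes). Nt5e, the other AMP ectonucleotidase of these neurons, measured 86.7, 85.7 and 72 CPM in the wild-type mice against 64.5, 63.2 and 61 CPM in the knockouts. The groups did not overlap, and its log2 fold change of -0.36 was less than that of Acpp.

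Entpd3, which removes phosphate from ATP and ADP, was at -0.16. Adenosine kinase Adk at -0.47, adenosine deaminase Ada at -0.56 and the nucleoside transporter Slc29a1 at -0.43 were lower without overlap. Its relative Slc29a2 at 0.61, Enpp1 at 0.35 and Entpd1 at 0.32 were higher without overlap. The A1 adenosine receptor Adora1 measured 73.2, 113 and 111 CPM in the wild-type mice against 89.5, 129 and 126 CPM in the knockouts, with overlap. The other acid phosphatases, Acp1, Acp2, Acp5 and Acp6, all overlapped.

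Among 13 genes of the sodium pump and its FXYD regulators, 10 were positive with a median of 0.24, and 2 were lower and 4 higher without overlap, beside 15.5 and 11.8% of all genes. None passed in edgeR, DESeq2 or limma-voom, and 2 were lower at an unadjusted p under 0.05 (4.0% of all genes). The beta subunit Atp1b3 measured 456, 486 and 476 CPM against 365, 381 and 379 CPM (log2 fold change -0.34). Fxyd7, a neuronal regulator of the pump, measured 112, 182 and 161 CPM against 206, 208 and 214 CPM, higher without overlap (0.47). Fxyd6, whose annotated end lies 3510 bases upstream of Fxyd2 on chromosome 9, measured 75.9, 77.5 and 77.9 CPM against 66.5, 62.1 and 62.7 CPM (-0.26).

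Among 13 PAQR family and progestin receptor genes, 12 were positive, with a median of 0.16, and 5 were higher and 1, Pgrmc1, lower without overlap, beside 11.8 and 15.5% of all genes. None passed in edgeR, DESeq2 or limma-voom, and 1 was higher at an unadjusted p under 0.05 (5.16% of all genes). The other membrane progestin receptors Paqr6 at 0.36 and Paqr8 at 0.31 were higher without overlap, the opposite side from Paqr5. Paqr7 measured 57, 70.9 and 69.9 CPM in the wild-type mice against 65.4, 76.4 and 75.2 CPM in the knockouts. Pgrmc1, a progesterone-binding membrane component, was at -0.13.

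For lysophosphatidic acid, 11 genes were tested, with 4 negative, a median of 0.15, and 0 lower and 2 higher without overlap, beside 15.5 and 11.8% of all genes. None passed in edgeR, DESeq2 or limma-voom, and 1 was higher at an unadjusted p under 0.05 (5.16% of all genes). The highest value was that of Liph, a lipase that makes lysophosphatidic acid, at 1.58 from 0.57, 0.409 and 0.273 CPM to 1.43, 1.15 and 1.06 CPM. Lpar1, a receptor known from Schwann cells, measured 110, 99 and 111 CPM in the wild-type mice against 130, 118 and 122 CPM in the knockouts, higher without overlap (0.23). Lpar5 measured 6.08, 6.54 and 6.05 CPM against 3.33, 6.74 and 6.13 CPM, low in knockout 4 alone, and its sign turned without that library. Enpp2, or autotaxin, which makes the ligand, was at 26.4 to 32.4 CPM in wild type and 23.4 to 28.8 CPM in knockout.

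For the renin and angiotensin system, 12 genes were tested, with 5 negative, a median of 0.06, and 2 lower and 2 higher without overlap, near the 15.5 and 11.8% of all genes. None passed in edgeR, DESeq2 or limma-voom, and 0 had an unadjusted p under 0.05, where 9.16% of all genes did. Agtr1b, the second type 1 receptor gene of mice, measured 12.7, 9.59 and 9.6 CPM in the wild-type mice against 8.27, 7.86 and 8.63 CPM in the knockouts. It was lower without overlap, with a log2 fold change of -0.36 against -1.04 for Agtr1a. Ace, the converting enzyme, at 0.29 and Enpep, an aminopeptidase that shortens angiotensin II, at 0.29 were higher without overlap. Agt, the precursor, was at 4.95 to 5.72 CPM in wild type and 4.82 to 5.04 CPM in knockout.

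Because near-identical stretches make reads hard to assign to Agtr1a or Agtr1b, their coding sequences were compared in the vM21 transcripts. Over 1080 coding bases they were 90.8% identical, with 99 differing bases, and the longest identical run was 66 bases. RSEM gave a fractional count for Agtr1a in 2 of 6 libraries, wild type 1 (608.58) and knockout 5 (307.52), and a whole number in the other 4. The 60 coding bases from 964 to 1023, counted from the first base of the start codon, hold the most differences, 13, and are shown to let the paralogs be told apart. Capitals mark the differing bases.
Agtr1a: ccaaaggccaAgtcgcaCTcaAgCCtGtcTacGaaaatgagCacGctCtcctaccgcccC
Agtr1b: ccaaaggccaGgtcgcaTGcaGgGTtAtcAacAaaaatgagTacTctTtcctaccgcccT

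**Figure D4:**
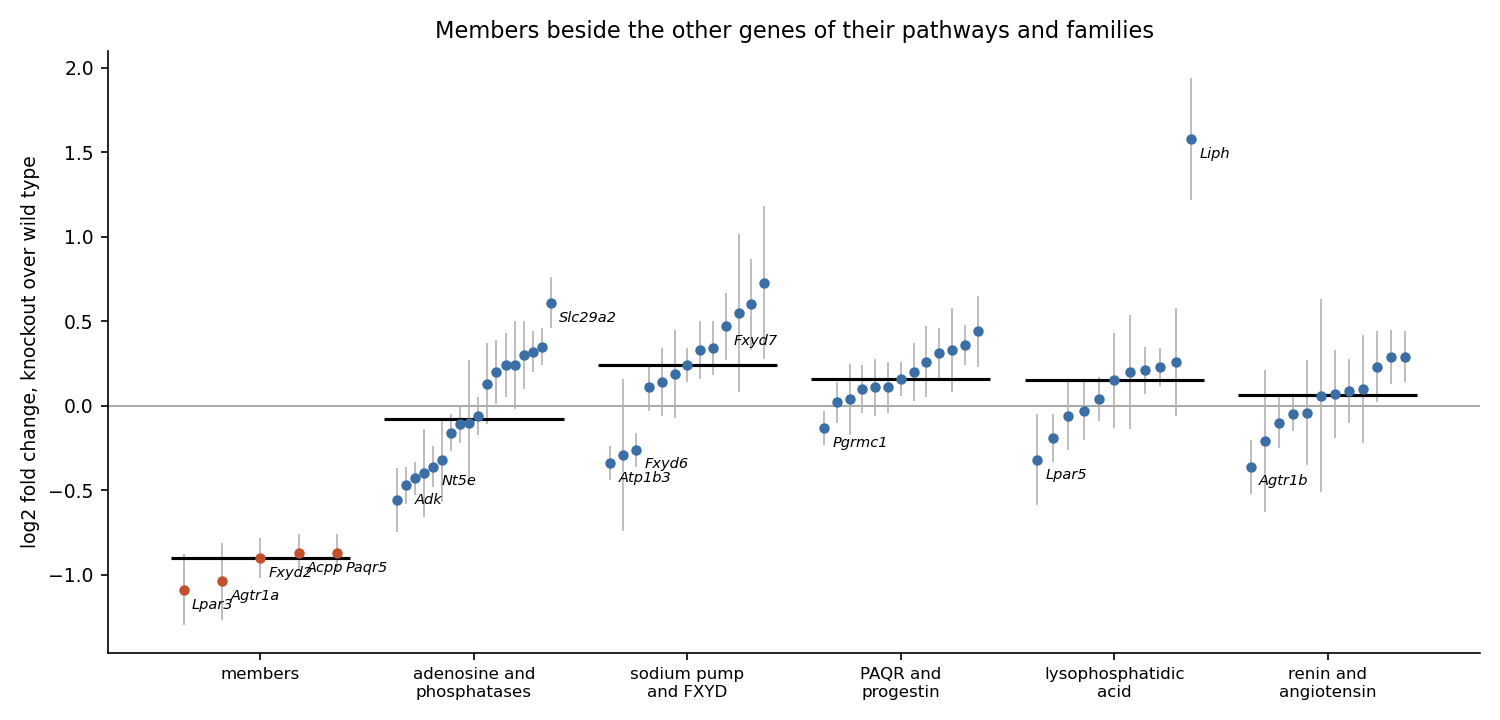
Log2 fold change of knockout over wild type (edgeR, 3 against 2 samples) for the 5 genes (red) and for each other tested gene of their pathways and families (blue), with standard errors in grey and medians as black lines. The 5 lists have medians from -0.08 to 0.24, against -0.90 for the 5 genes.

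The genomic neighbours of the 5 genes were read as a check of position. Most of these neighbours were lower without overlap over the 5 samples, a larger share than the 15.5% of all genes tested. Of all genes, 11.8% were higher without overlap. An effect of position was not tested. On either side of Paqr5 both tested neighbours were lower without overlap, the kinesin Kif23 at -0.49 and the heparan sulfate enzyme Glce at -0.45, neither passing in edgeR. Beside Lpar3, the channel gene Mcoln2 was higher without overlap, from 0.27, 0.252 and 0.615 CPM in wild type to 0.987, 1.26 and 1.41 CPM in knockout. Beside Acpp, Dnajc13 was lower without overlap, at 183 to 191 CPM in wild type and 172 to 175 CPM in knockout (log2 fold change -0.11). Cpne4 overlapped at 68.5 to 93.1 and 73.2 to 91.8 CPM (0.06). Beside Agtr1a, Uqcrfs1 was lower without overlap, at 96.7 to 108 and 87.6 to 95.5 CPM (log2 fold change -0.15). Mboat1 overlapped at 9.65 to 11.2 and 10.1 to 12.4 CPM (0.14). Ssx2ip, also beside Lpar3, was at 90.6 to 99.6 and 87.1 to 91.0 CPM (log2 fold change -0.11, lower without overlap over the 5 samples). Beside Fxyd2, Fxyd6 was lower without overlap (log2 fold change -0.26) and Dscaml1 overlapped (0.38).

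Other features of the libraries moved with the groups. The 14 sensory neuron injury genes summed to 315 to 365 CPM in wild type and 633 to 647 CPM in knockout, and 13 of 14 were higher without overlap, beside 11.8% of all genes (10.3% over 6 libraries). Of the 14, 6 passed as higher in edgeR, where 0.0595% of all genes did, and 10 with 6 libraries, where 0.46% did. Satellite glia markers summed to 2570 to 2689 CPM and 2824 to 3146 CPM, myelin markers to 3922 to 4634 and 5233 to 5283 CPM, and endothelial markers to 56.9 to 67.4 and 81.6 to 86.4 CPM. None of the 5 markers of each of these 3 cell types was at 0 in all libraries, and their part in the lower values of the 5 genes was not tested. Erythroid markers were at 15020 CPM in knockout 4 against 3175 to 5911 CPM elsewhere. Without knockout 4, the log2 fold changes were -0.88 for Acpp, -1.01 for Fxyd2, -0.90 for Paqr5, -0.86 for Lpar3 and -0.98 for Agtr1a. Genes of similar GC content had median log2 fold changes of -0.03 to 0.1, and centring on them left -1.08 to -0.84 for the 5 genes.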

How the data were processed

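RNA of 6 ganglion libraries was quantified per gene. Trimmomatic 0.38, STAR 2.6.0a and RSEM 1.3.0 on GRCm38 were used, per the submitters' processing notes, and the kit was a stranded mRNA kit, per the labels' protocols. The annotation release is not given in the sources used here. Per the file headers, the deposited values are expected counts (estimated counts, not normalized), TPM (transcripts per fixed library total) and gene lengths. Of 36793 identifiers 35243 matched a symbol.

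Expected counts were rounded, and those of knockout libraries 5 and 6 summed, filtered with filterByExpr, scaled by TMM and tested over 16810 genes by the quasi-likelihood test of edgeR 4.0.16 under R 4.3.3 (two-sided, Benjamini-Hochberg, FDR 0.05). Standard errors are |log2 fold change| over the root of F. Per-library CPM come from scaling the 6 libraries separately. The fit was tested on simulated data. DESeq2 1.42.0, limma 3.58.1, other scalings, no filter, TPM with pseudocounts of 0.1 and 1 and omission of each sample were alternatives, and centring on genes of like GC content was chosen after seeing the data. The labels number the mice 1 to 6 but give no litter or batch, and p-values measure the spread between these samples, which may be in part technical.

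The 5 genes, the gene lists and the tests were chosen with earlier results of these data known. Named are the 5 genes, genes of their pathways and of the non-peptidergic lists, the most abundant or called genes of other lists, the nearest genomic neighbours and the 3 closest profiles per gene with at least 5 CPM. Kept outside that rule as list members, and chosen after their values were seen, are Slc17a8 and Nts. Fam19a4 and Nppb are within it as abundant genes of their lists, but were also chosen after their values were seen. A few single-gene results are not reported here.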

Additional observations from a re-analysis of the deposited data

How the results depend on the processing

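No paired analysis was possible because each mouse number occurs in 1 group. The log2 fold changes of the 5 genes kept their sign in all 15 alternatives each, and 73 of 75 values moved by less than the spread between replicates. The exceptions were Paqr5 on TPM, at -0.72 and -0.70 with pseudocounts of 0.1 and 1, since its transcript length differed between groups. Leaving out samples gave -0.92 to -0.79 for Acpp, -1.01 to -0.80 for Fxyd2, -0.91 to -0.80 for Paqr5, -1.36 to -0.86 for Lpar3 and -1.22 to -0.88 for Agtr1a. The 16 genes past the threshold over all genes became 144 with 6 libraries counted separately, 81 with no filter, 255 with DESeq2, 30 at an FDR of 0.10 and 7 to 14 without single replicates. Of the 93 tested pathway and non-peptidergic genes, 0 passed in edgeR, 7 with 6 libraries, 2 with no filter, 8 with DESeq2 and 0 to 1 without single replicates. Of these 93, 20 were lower and 19 higher without overlap (15.5 and 11.8% of all genes), and 21 to 34 were lower without single replicates, the highest without knockout 5 and 6, where fewer samples make overlap rarer by construction. The length difference of Acpp ran from -7.4 to 8.3 bases without single replicates (-7.4 without wild type 1, -4.2 without knockout 5 and 6), that of Agtr1a from -10.1 to 16.3 (-10.1 without wild type 1, -4.0 without knockout 4) and that of Paqr5 from -310.4 to -196.4. Grin1 turned to -0.07 and Ret to -0.15 without knockout 5 and 6, and Lpar5 to 0.06 without knockout 4 (range without single replicates -0.34 to 0.06, and -0.90 without knockout 5 and 6). The cause was not tested except where stated. Of the values of single named genes, 882 stayed on their side of the threshold with their sign, 45 gained and 8 lost the call. Without knockout 4, or 5 and 6, a lone knockout sample remained, whose variation was taken from the wild type. Depth limits Agtr1a most among the 5 genes.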
